A study of Mus musculus with 24 samples.

Results

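The 10 genes Pdgfb, Pdgfrb, Cspg4, Rgs5, Kcnj8, Abcc9, Notch3, Anpep, Des and Vtn, which are used as markers of pericytes and other mural cells or act in the signals that hold them on vessels, were followed in the lung and the retina. They were taken by gene symbol from the 36109 genes listed for the lung and the 36595 listed for the retina. Each name matched 1 Ensembl gene, and all 10 passed the filter on low counts in both tissues. The lowest count of any of them in a library was 50 in the lung (Vtn) and 20 in the retina (Anpep). RNA came from 12 lungs and 12 retinas, with 3 mice in each of 4 groups per tissue: wildtype littermates in room air (WT-RA), wildtype in hyperoxia (WT-O2), gasdermin D knockout in room air (KO-RA) and knockout in hyperoxia (KO-O2). The knockout (GSDMD-KO) was global, on a C57/B6 background, and homozygous for a small CRISPR deletion in exon 5 of Gsdmd. Lungs came from pups kept in 85% or 21% O2 from P1 to P14 and were collected at P15. Retinas came from pups kept in 75% O2 from P7 to P12 and then returned to room air, or kept in room air throughout, and were collected at P18. The lung was therefore sampled within a day of hyperoxia and the retina 6 days after it.

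Pericytes sit within the basement membrane of capillaries and venules, and smooth muscle cells wrap the larger vessels. Endothelial cells secrete PDGF-BB, the product of Pdgfb, and mural cells carry its receptor PDGFR-beta, the product of Pdgfrb, and in the absence of either gene vessels form with few pericytes. None of the 10 genes is confined to mural cells in a whole tissue: Pdgfrb is also found in fibroblasts, Cspg4 in oligodendrocyte precursors, Anpep in myeloid and epithelial cells, Des in all muscle, and Vtn in liver and photoreceptors. In the lung, prolonged hyperoxia of newborn mice arrests the growth of alveoli and capillaries, and in the oxygen-induced retinopathy model the central retina loses capillaries during hyperoxia and grows abnormal vessels after the return to room air.

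Library totals were 28763661 to 29604254 counts in the lung and 24863257 to 29093035 in the retina. The lung libraries held lung epithelium markers that summed to 19734 to 34059 CPM (counts scaled to a library total of 1000000, after TMM scaling). The retina libraries held retinal neuron markers at 37162 to 56208 CPM. Gsdmd itself was at 32.2 to 42.3 CPM in WT lungs and at 11.7 to 24.8 in GSDMD-KO lungs, with no overlap. In the retina it was at 0.419 to 5.70 CPM in WT and 0.636 to 2.95 in GSDMD-KO. The library labelled WT-RA mouse 2 had 0.419 CPM, under every library labelled GSDMD-KO, and the library labelled KO-O2 mouse 3 had 2.95 CPM, above 3 of the 6 libraries labelled WT. Genotypes of the retina are given as labelled, and the calls and named genotype differences of the 10 genes are repeated below without these 2 libraries. Lens transcripts, 6 of 6 genes of the list, summed to 15951 and 54634 CPM in the libraries labelled WT-RA mouse 2 and mouse 3. They summed to 21944 CPM in KO-RA mouse 3 and to 2.26 to 265.6 in the other 9 retina libraries. Retina values of the 10 genes are therefore also given without WT-RA mouse 2, WT-RA mouse 3 and KO-RA mouse 3, the 3 lens-holding libraries. In that fit WT-RA keeps 1 library, which is assumed to vary like the others. Y-linked transcripts marked all 6 room air retinas but 2 of 6 hyperoxia retinas, 1 per genotype, as male. In the lung the same transcripts marked 1 of 6 WT mice (a WT-O2 mouse) and 5 of 6 GSDMD-KO mice as male, so sex moved with exposure in the retina and with genotype in the lung.

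Levels of the 10 genes in WT-RA mice were set beside each other per kilobase of exon, since read counts grow with transcript length. How the retina values were scaled is not given in the sources used here. If they were already scaled by length, the order by CPM applies, in which Pdgfrb (mean 8.14 CPM in WT-RA) was above Pdgfb (6.76 CPM). In the lung the order by mean CPM per kb (± SD, n = 3) was Pdgfrb at 81.0 ± 9.19, Pdgfb at 56.3 ± 7.88, Des at 37.1 ± 9.06, Notch3 at 23.3 ± 0.661 and Anpep at 20.2 ± 1.06. Rgs5 followed at 13.7 ± 2.81, Vtn at 7.84 ± 0.534, Cspg4 at 4.09 ± 0.107, Kcnj8 at 3.67 ± 0.828 and Abcc9 at 1.84 ± 0.165. Each neighbouring pair in that order was apart in all 3 mice except Cspg4 and Kcnj8, whose ranges overlapped. In the retina the order was led by Vtn at 401 ± 54.8 CPM per kb and Rgs5 at 13.0 ± 1.82, with the other 8 genes at or under 1.62. These were Pdgfb at 1.62 ± 0.325, Pdgfrb at 1.49 ± 0.0881, Kcnj8 at 1.02 ± 0.0832, Abcc9 at 0.559 ± 0.0229, Des at 0.43 ± 0.0589, Anpep at 0.395 ± 0.114, Notch3 at 0.312 ± 0.0716 and Cspg4 at 0.228 ± 0.0485. The ranges of Pdgfb and Pdgfrb overlapped, as did those of Des with Anpep, Anpep with Notch3 and Notch3 with Cspg4. Vtn, which photoreceptors are known to transcribe, was thus far above every other gene of the set in the retina, and its level there is not read as that of mural cells.

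The promoters of 3 genes are shown because their genes carry the contrasts described below: Kcnj8 and Abcc9 encode the partner subunits of 1 channel, and Vtn had the largest change of the set. Kcnj8 (ENSMUSG00000030247, chr6:142564837-142571614, minus strand) and Abcc9 (ENSMUSG00000030249, chr6:142587862-142702315, minus strand) lie side by side with 16247 bases and no annotated gene between them. The 250 bases before the RefSeq start are given from RefSeq (GRCm38.p6), 5′ to 3′ on the strand of the gene, for Kcnj8 (chr6:142571615-142571864, minus strand), Abcc9 (chr6:142702275-142702524, minus strand) and Vtn (chr11:78498870-78499119, plus strand). Capitals mark matches on either strand of TGGGAA, the core bound by the Notch partner RBPJ, of ACGTG or GCGTG, the core bound by hypoxia-inducible factors, and of TATAAA, the TATA box.
Kcnj8: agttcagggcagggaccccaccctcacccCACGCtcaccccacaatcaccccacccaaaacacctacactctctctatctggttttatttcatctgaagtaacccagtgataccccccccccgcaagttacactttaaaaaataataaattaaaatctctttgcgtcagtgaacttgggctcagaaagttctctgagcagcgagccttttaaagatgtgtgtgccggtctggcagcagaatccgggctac
Abcc9: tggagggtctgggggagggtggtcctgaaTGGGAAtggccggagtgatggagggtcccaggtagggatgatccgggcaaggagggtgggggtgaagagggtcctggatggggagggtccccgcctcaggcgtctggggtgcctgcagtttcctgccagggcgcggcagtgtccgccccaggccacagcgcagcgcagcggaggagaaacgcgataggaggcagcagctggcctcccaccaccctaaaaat
Vtn: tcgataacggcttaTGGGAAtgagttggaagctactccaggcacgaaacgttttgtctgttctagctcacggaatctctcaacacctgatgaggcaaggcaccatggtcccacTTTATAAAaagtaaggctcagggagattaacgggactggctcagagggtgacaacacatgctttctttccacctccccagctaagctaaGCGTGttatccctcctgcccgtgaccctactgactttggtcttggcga
Promoters were at hand for 8 of the 10 genes, all but Pdgfb and Pdgfrb. TGGGAA was present in 2 of these 8, Abcc9 and Vtn, against 21.6% of the 32851 promoters of the same length. GCGTG was present in 4 (Kcnj8, Notch3, Anpep and Vtn) against 28.2%, ACGTG in 1 (Notch3) against 16.6%, and TATAAA in 1 (Vtn, where it overlaps its own reverse) against 12.4%. The Kcnj8 and Abcc9 stretches share no match among these motifs. They also differ in composition, with 49.2% G and C and 6 CpG in Kcnj8 against 66.8% and 12 in Abcc9, where the median of all promoters was 52.4% and 6. A match is a description of the letters and not a measured binding site.

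In the lung, hyperoxia moved 8 of the 10 genes in WT mice, in both directions. In the WT comparison 5 were higher in WT-O2 than in WT-RA (Pdgfb, Cspg4, Rgs5, Anpep and Des) and 3 were lower (Pdgfrb, Notch3 and Vtn), at a Benjamini-Hochberg adjusted p under 0.1 in edgeR's quasi-likelihood test over all genes. Of all genes tested 24.5% were higher and 24.7% lower, so being called was common. In GSDMD-KO mice 8 of the 10 genes also passed, 3 higher (Pdgfb, Cspg4 and Rgs5) and 5 lower (Pdgfrb, Kcnj8, Abcc9, Notch3 and Vtn), against 23.3% and 23.4% of all genes. Changes of at least 2-fold were limited to Cspg4 and Vtn in both genotypes, 2 of 10 against 11.6% of all genes in WT and 10.6% in GSDMD-KO. The median log2 fold change of the 10 genes was 0.17 in WT and -0.17 in GSDMD-KO, beside -0.01 for all genes in both. These are whole-tissue libraries, so fewer cells of a type and less RNA per cell cannot be told apart. Erythroid genes were lower in WT-O2 than in WT-RA for 7 of 7, at a summed 2920 to 4152 CPM against 15750 to 18153. In GSDMD-KO they were lower for 1 of 7, at 5970 to 29928 against 12675 to 26853. Their part in the lung values was not tested.

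**Figure D1:**
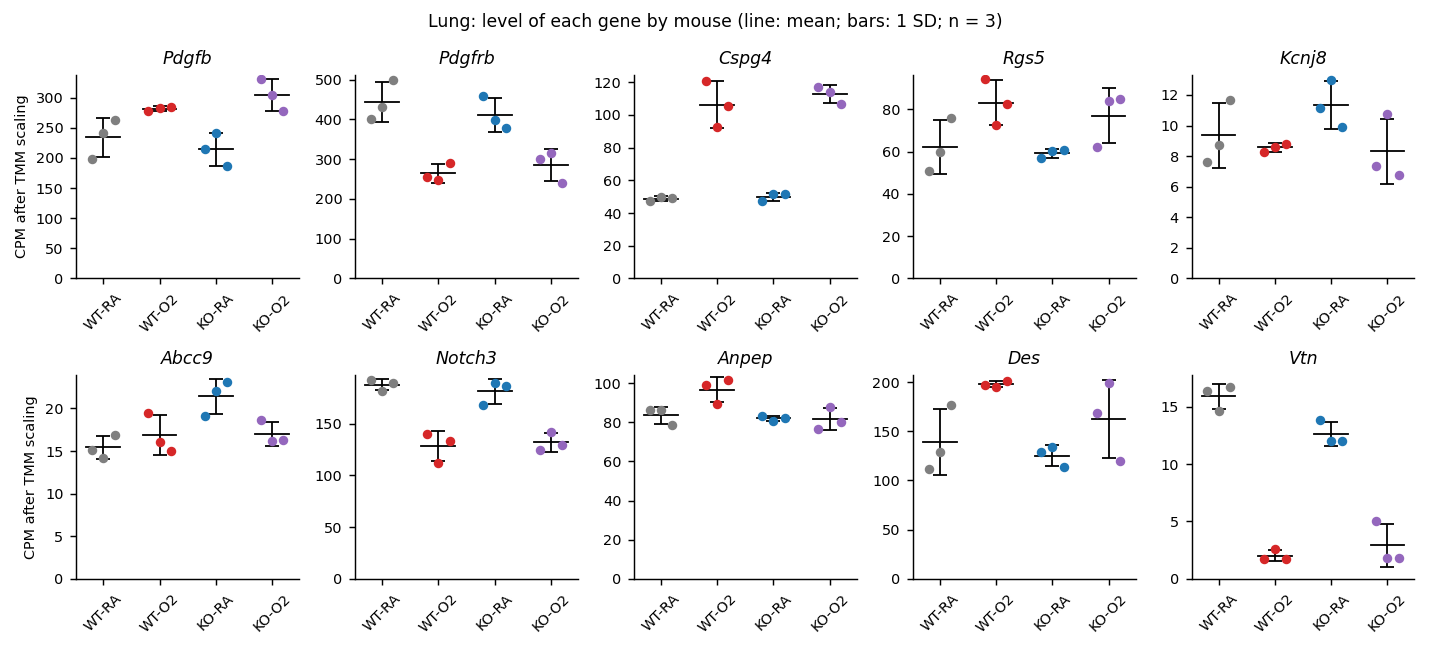
Level of each of the 10 genes in every lung library, in CPM after TMM scaling (y axis, from 0), by group (x axis). Points are mice, lines are means and bars are 1 SD. Cspg4 sits at 92.5 to 121 CPM in all 6 hyperoxia mice and at 47.0 to 51.6 in all 6 room air mice, and Vtn at 1.69 to 5.07 against 12.0 to 16.7.

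In the retina, 8 of the 10 genes were higher in WT-O2 than in WT-RA (Pdgfb, Pdgfrb, Cspg4, Rgs5, Kcnj8, Abcc9, Notch3 and Des), where 3.11% of all genes tested were higher and 2.05% lower. Of the 10 genes 0 passed as lower. In GSDMD-KO mice 5 were higher (Pdgfb, Pdgfrb, Rgs5, Kcnj8 and Abcc9), against 4.38% of all genes higher and 3.44% lower. Changes of at least 2-fold were found for Pdgfb, Rgs5 and Des in WT (3 of 10, against 2.04% of all genes) and for Pdgfb in GSDMD-KO (1 of 10, against 2.19%). The median log2 fold change was 0.93 in WT and 0.63 in GSDMD-KO, beside 0.00 for all genes in both. The count in WT fell to 2 (Pdgfb and Rgs5) without the 3 lens-holding libraries, to 3 (Pdgfb, Cspg4 and Rgs5) without the 2 libraries whose Gsdmd level goes against the label, and to 4 (Pdgfb, Cspg4, Rgs5 and Kcnj8) with a term for sex. In GSDMD-KO it fell to 1 (Pdgfb) without the lens-holding libraries and to 2 (Pdgfb and Pdgfrb) with a term for sex. Among the calls lost with the term for sex, the WT log2 fold change with that term was 0.74 (adjusted p = 0.115) for Pdgfrb, 0.72 (adjusted p = 0.107) for Abcc9, 1.01 (adjusted p = 0.25) for Notch3 and 1.18 (adjusted p = 0.229) for Des. In GSDMD-KO it was 0.70 (adjusted p = 0.147) for Rgs5, 0.73 (adjusted p = 0.148) for Kcnj8 and 0.56 (adjusted p = 0.142) for Abcc9. With the lens level as a covariate 1 gene passed in WT (Rgs5) and 3 in GSDMD-KO (Pdgfb, Pdgfrb and Abcc9). Calls among all genes also fell in the fits for Gsdmd label, sex and lens covariate. In WT they went from 990 to 307 without the 2 libraries whose Gsdmd level goes against the label. They went to 374 with a term for sex and 280 with the lens covariate. In GSDMD-KO they went from 1500 to 705, 836 and 1207 in the same fits. No such count is set beside the fit without the lens-holding libraries, which keeps 1 WT-RA library. Whether the calls lost in that fit follow a loss among all genes is therefore not shown. Without the 2 libraries whose Gsdmd level goes against the label, the WT log2 fold change was 1.05 (adjusted p = 0.0876) for Pdgfb, 1.41 (adjusted p = 0.0126) for Rgs5 and 1.13 (adjusted p = 0.0674) for Cspg4. In the same fit it was 0.66 (adjusted p = 0.179) for Pdgfrb, 0.88 (adjusted p = 0.104) for Kcnj8, 0.76 (adjusted p = 0.101) for Abcc9, 1.16 (adjusted p = 0.17) for Notch3 and 1.30 (adjusted p = 0.204) for Des, while the 5 GSDMD-KO calls all held. The part of lens tissue and of sex in the retina values was not tested beyond these fits. Scaling by library totals in place of TMM moved the median of all genes by 0.24 in WT and 0.05 in GSDMD-KO, and took the share of higher among all genes that passed from 60.3% to 95.4% and from 56% to 73.1%. Retina values are given after TMM scaling, relative to that shift.

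**Figure D2:**
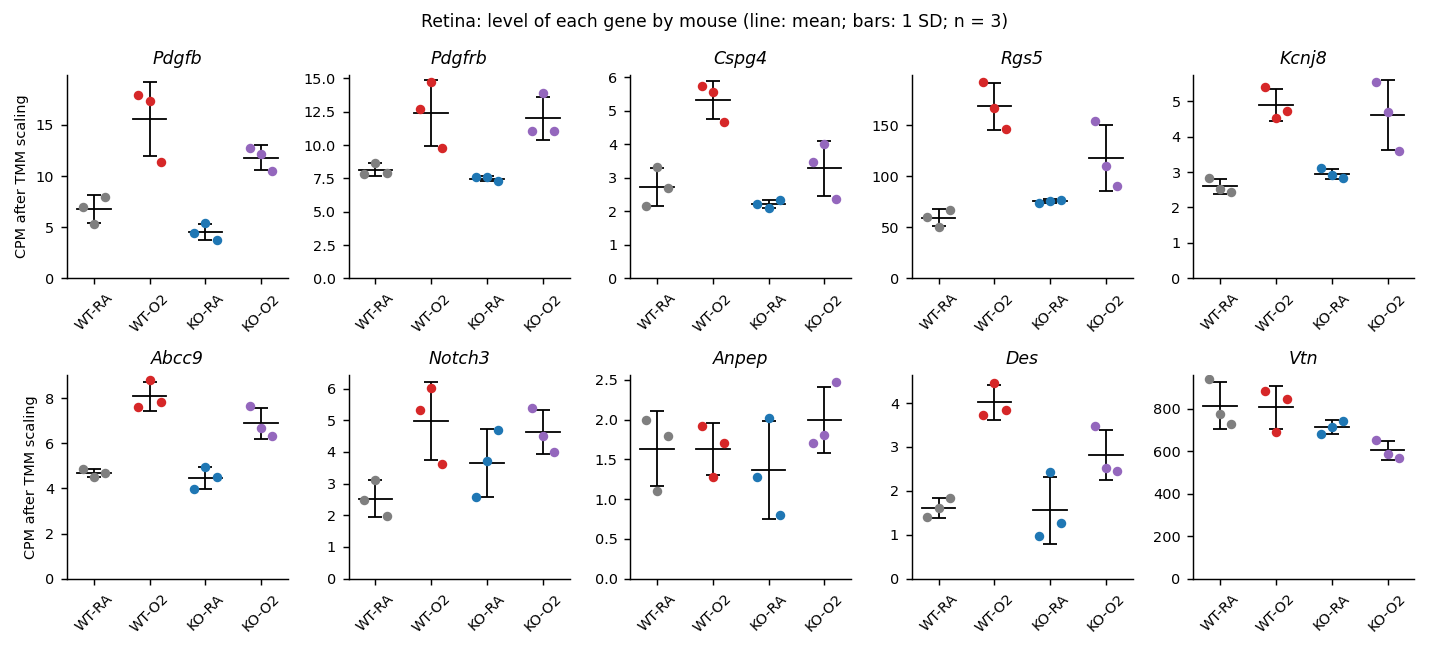
Level of each of the 10 genes in every retina library, in CPM after TMM scaling (y axis, from 0), by group as labelled (x axis). Points are mice, lines are means and bars are 1 SD. Rgs5 sits at 146 to 193 CPM in WT-O2 against 50.6 to 67.1 in WT-RA, and Vtn at 568 to 940.1 over all 12 libraries.

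Pdgfb encodes the endothelial ligand. In the lung Pdgfb was at 198, 242 and 263 CPM in WT-RA, 278, 283 and 285 in WT-O2, 215, 242 and 187 in KO-RA and 331, 305 and 278 in KO-O2. Every hyperoxia mouse was above every room air mouse of its genotype. The log2 fold change was 0.27 ± 0.11 (adjusted p = 0.0712) in WT and 0.50 ± 0.11 (adjusted p = 0.00261) in GSDMD-KO, and the WT value passed in 13 of 19 alternative settings against 19 of 19 for GSDMD-KO. With a term for sex the WT value was 0.26 (adjusted p = 0.116). In the retina Pdgfb was at 7.00, 5.30 and 7.97 CPM in WT-RA, 17.9, 17.3 and 11.4 in WT-O2, 4.39, 5.38 and 3.77 in KO-RA and 12.8, 12.2 and 10.5 in KO-O2. Again the groups did not overlap within a genotype, and the change was 2.30-fold in WT and 2.61-fold in GSDMD-KO. On the log2 scale it was 1.20 ± 0.21 (adjusted p = 0.015) and 1.38 ± 0.21 (adjusted p = 0.00819). Without the lens-holding libraries it was 1.15 (adjusted p = 0.0994) and 1.27 (adjusted p = 0.0448). With the lens level as a covariate it was 0.99 (adjusted p = 0.151) and 1.32 (adjusted p = 0.0198), and the calls passed in 21 of 22 and 22 of 22 alternatives.

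Pdgfrb encodes the receptor through which mural cells and fibroblasts answer that ligand. In the lung Pdgfrb was at 401, 431 and 499 CPM in WT-RA, 256, 246 and 291 in WT-O2, 458, 398 and 377 in KO-RA and 299, 316 and 239 in KO-O2. All 6 hyperoxia mice were under all 6 room air mice, so receptor and ligand moved in opposite directions in this tissue. The log2 fold change was -0.75 ± 0.12 (adjusted p = 1.77e-04) in WT and -0.53 ± 0.12 (adjusted p = 0.00269) in GSDMD-KO, and both passed in all 19 alternative settings. In the retina Pdgfrb was at 7.80, 8.69 and 7.92 CPM in WT-RA, 12.7, 14.8 and 9.77 in WT-O2, 7.64, 7.57 and 7.27 in KO-RA and 11.0, 13.9 and 11.1 in KO-O2. Here every hyperoxia mouse was above every room air mouse. The log2 fold change was 0.61 ± 0.16 (adjusted p = 0.0682) in WT and 0.68 ± 0.16 (adjusted p = 0.0392) in GSDMD-KO, and it passed in 11 of 22 and 18 of 22 alternatives. Without the lens-holding libraries the sizes were 0.66 (adjusted p = 0.216) and 0.66 (adjusted p = 0.145), similar in size but past the threshold in neither genotype.

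The rest of the PDGF family comprised 5 measured genes. In the lung Pdgfra, the receptor of alveolar fibroblasts, fell, with a log2 fold change of -2.20 ± 0.21 (adjusted p = 8.48e-06) in WT and -2.51 ± 0.21 (adjusted p = 3.73e-06) in GSDMD-KO. Its ligands rose, Pdgfc by 1.81 ± 0.25 (adjusted p = 5.19e-05) and 1.99 ± 0.25 (adjusted p = 2.95e-05) and Pdgfa by 0.43 ± 0.10 (adjusted p = 0.00228) and 0.63 ± 0.10 (adjusted p = 1.29e-04). Pdgfd, the second ligand of PDGFR-beta, was at -0.13 ± 0.12 (adjusted p = 0.418) and -0.16 ± 0.13 (adjusted p = 0.335). The lung thus had 2 of 5 higher and 1 of 5 lower in each genotype. Among all genes tested there, 24.5% were higher and 24.7% lower in WT, and 23.3% and 23.4% in GSDMD-KO. In the retina Pdgfra rose in GSDMD-KO (0.75 ± 0.22, adjusted p = 0.0794) and was at 0.51 ± 0.22 (adjusted p = 0.25) in WT, and the other 4 did not pass in either genotype.

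Cspg4 encodes NG2, the chondroitin sulfate proteoglycan on the surface of pericytes and growing smooth muscle. In the lung Cspg4 was at 47.4, 49.9 and 49.2 CPM in WT-RA, 121, 92.5 and 105 in WT-O2, 47.0, 51.3 and 51.6 in KO-RA and 117, 114 and 107 in KO-O2. The 2 exposures were separated in both genotypes with little spread in room air, and the rise was 2.18-fold in WT and 2.26-fold in GSDMD-KO. The log2 fold change was 1.12 ± 0.09 (adjusted p = 3.40e-07) and 1.17 ± 0.09 (adjusted p = 3.03e-07), past the threshold in all 19 alternative settings. In the retina Cspg4 was low, at 2.16, 3.32 and 2.70 CPM in WT-RA, 5.73, 5.55 and 4.66 in WT-O2, 2.23, 2.09 and 2.34 in KO-RA and 3.47, 4.00 and 2.37 in KO-O2. Hyperoxia mice were above room air mice in both genotypes, by 0.96 ± 0.23 (adjusted p = 0.0561) in WT and 0.56 ± 0.23 (adjusted p = 0.205) in GSDMD-KO, and the WT difference passed while the GSDMD-KO difference did not. The WT value was 1.29 (adjusted p = 0.117) without the lens-holding libraries. Anpep encodes CD13, an aminopeptidase of pericytes and myeloid cells. In the lung Anpep was at 86.3, 86.2 and 78.6 CPM in WT-RA, 99.0, 89.7 and 102 in WT-O2, 83.1, 80.8 and 82.5 in KO-RA and 76.8, 87.9 and 80.2 in KO-O2. Its rise in WT was small, 0.21 ± 0.08 (adjusted p = 0.0396), with WT-O2 apart from WT-RA, and in GSDMD-KO it was at -0.01 ± 0.08 (adjusted p = 0.944). In the retina Anpep was near 1 to 2 CPM, at 2.00, 1.11 and 1.80 CPM in WT-RA, 1.92, 1.28 and 1.70 in WT-O2, 1.28, 2.02 and 0.795 in KO-RA and 1.70, 1.81 and 2.48 in KO-O2. All groups overlapped, with log2 fold changes of -0.00049 ± 0.37 (adjusted p = 1) and 0.54 ± 0.37 (adjusted p = 0.452) whose 95% intervals ran from -0.82 to 0.81 and from -0.27 to 1.36. Anpep was at -0.30 (adjusted p = 0.754) and 0.28 (adjusted p = 0.744) without the lens-holding libraries.

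Rgs5 encodes a regulator of G-protein signaling that is abundant in pericytes. In the lung Rgs5 was at 50.9, 59.8 and 76.1 CPM in WT-RA, 94.3, 72.7 and 82.7 in WT-O2, 56.8, 60.4 and 60.6 in KO-RA and 62.0, 84.2 and 84.8 in KO-O2. One WT-RA mouse, at 76.1, was above 1 WT-O2 mouse, at 72.7, while the GSDMD-KO groups were just apart, at 60.6 and 62.0. The log2 fold change was 0.42 ± 0.15 (adjusted p = 0.0375) in WT and 0.38 ± 0.15 (adjusted p = 0.0616) in GSDMD-KO, passing in 16 of 19 and 13 of 19 alternatives, and with a term for sex the GSDMD-KO value was 0.36 (adjusted p = 0.11). In the retina Rgs5 was at 60.2, 50.6 and 67.1 CPM in WT-RA, 193, 167 and 146 in WT-O2, 73.9, 76.3 and 77.03 in KO-RA and 154, 110.2 and 90.8 in KO-O2. The rise in WT was the largest of the 10 genes, 2.85-fold, with a log2 fold change of 1.51 ± 0.18 (adjusted p = 0.00197), and it passed in all 22 alternatives. In GSDMD-KO it was 0.64 ± 0.18 (adjusted p = 0.0694), which passed in 13 of 22. Without the lens-holding libraries the values were 1.48 (adjusted p = 0.0579) and 0.66 (adjusted p = 0.176). Of 6 tested RGS genes of the same family, in the WT lung Rgs2 (-1.27 ± 0.19, adjusted p = 2.38e-04), Rgs3 (-1.03 ± 0.10, adjusted p = 1.95e-06), Rgs4 (-1.03 ± 0.11, adjusted p = 4.51e-06) and 1 other were lower and Rgs16 (3.11 ± 0.64, adjusted p = 0.00423) was higher. In the GSDMD-KO lung 2 were higher and 3 lower. Of all lung genes 24.5% were higher and 24.7% lower in WT, and 23.3% and 23.4% in GSDMD-KO. Of all retina genes 3.11% were higher and 2.05% lower in WT. In the retina 1 of 6 passed in WT, Rgs3, which was lower (-0.80 ± 0.15, adjusted p = 0.0186) and was at -0.15 ± 0.15 (adjusted p = 0.616) in GSDMD-KO.

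Kcnj8 and Abcc9 encode Kir6.1 and SUR2, the pore and the regulatory subunit of the vascular ATP-sensitive potassium channel. In the lung Kcnj8 was at 7.61, 8.75 and 11.7 CPM in WT-RA, 8.28, 8.60 and 8.82 in WT-O2, 11.2, 13.0 and 9.90 in KO-RA and 7.38, 10.8 and 6.79 in KO-O2. Groups overlapped in both genotypes, and the log2 fold change was -0.13 ± 0.19 (adjusted p = 0.62) in WT and -0.45 ± 0.19 (adjusted p = 0.0674) in GSDMD-KO. Abcc9 was at 15.1, 14.2 and 16.9 CPM in WT-RA, 19.5, 16.1 and 15.03 in WT-O2, 19.2, 22.0 and 23.1 in KO-RA and 18.7, 16.2 and 16.3 in KO-O2 in the lung. Its 3 KO-O2 mice were under its 3 KO-RA mice, with -0.33 ± 0.12 (adjusted p = 0.0393), whereas WT groups overlapped, with 0.13 ± 0.12 (adjusted p = 0.414). In the retina Kcnj8 was at 2.84, 2.52 and 2.44 CPM in WT-RA, 5.39, 4.52 and 4.73 in WT-O2, 3.11, 2.93 and 2.82 in KO-RA and 5.55, 4.68 and 3.60 in KO-O2. Abcc9 was at 4.88, 4.498 and 4.67 CPM in WT-RA, 7.62, 8.79 and 7.83 in WT-O2, 3.95, 4.94 and 4.49 in KO-RA and 7.67, 6.67 and 6.31 in KO-O2 there. Both subunits were higher in every hyperoxia retina than in every room air retina. Kcnj8 rose by 0.91 ± 0.19 (adjusted p = 0.0341) in WT and 0.64 ± 0.19 (adjusted p = 0.0849) in GSDMD-KO, and Abcc9 by 0.79 ± 0.14 (adjusted p = 0.018) and 0.62 ± 0.14 (adjusted p = 0.0392). Without the lens-holding libraries Kcnj8 was at 0.77 (adjusted p = 0.226) and 0.61 (adjusted p = 0.235) and Abcc9 at 0.72 (adjusted p = 0.153) and 0.63 (adjusted p = 0.129). The subunits of the pancreatic and neuronal channel, Kcnj11 and Abcc8, rose in the lung from low levels. Kcnj11 rose by 0.82 ± 0.24 (adjusted p = 0.0125) in WT and 1.12 ± 0.25 (adjusted p = 0.00239) in GSDMD-KO. Abcc8 rose by 1.52 ± 0.41 (adjusted p = 0.0077) and 2.24 ± 0.44 (adjusted p = 9.70e-04). Together they summed to 1.605 to 2.89 CPM in WT-RA, 3.92 to 5.30 in WT-O2, 1.25 to 1.655 in KO-RA and 3.55 to 4.96 in KO-O2. In the retina Kcnj11 was at -0.10 ± 0.26 (adjusted p = 0.896) and 0.37 ± 0.26 (adjusted p = 0.459) and Abcc8 at -0.44 ± 0.16 (adjusted p = 0.186) and 0.17 ± 0.16 (adjusted p = 0.619).

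Notch3 encodes the Notch receptor of vascular smooth muscle and pericytes. In the lung Notch3 was at 193, 182 and 189.7 CPM in WT-RA, 141, 112 and 133 in WT-O2, 168, 189.8 and 186 in KO-RA and 124, 142 and 129.8 in KO-O2. All 6 hyperoxia mice, at 112 to 142 CPM, were under all 6 room air mice, at 168 to 193. The log2 fold change was -0.55 ± 0.09 (adjusted p = 2.50e-04) in WT and -0.46 ± 0.09 (adjusted p = 0.0011) in GSDMD-KO, and it passed in all 19 alternatives. In the retina Notch3 was at 2.48, 3.13 and 1.97 CPM in WT-RA, 5.31, 6.02 and 3.61 in WT-O2, 2.57, 3.70 and 4.69 in KO-RA and 5.38, 4.51 and 4.00 in KO-O2. WT groups were apart, with a rise of 0.98 ± 0.28 (adjusted p = 0.0949) that passed in 7 of 22 alternatives, and GSDMD-KO groups overlapped, with 0.34 ± 0.27 (adjusted p = 0.53). Without the lens-holding libraries the values were 1.00 (adjusted p = 0.214) and 0.57 (adjusted p = 0.364). Among 13 other Notch ligands, receptors and targets, 6 were lower and 1 was higher in the lung in each genotype. Of all lung genes 24.7% were lower and 24.5% higher in WT, and 23.4% and 23.3% in GSDMD-KO. The targets Hey1 (-1.83 ± 0.17, adjusted p = 2.79e-06 in WT and -1.99 ± 0.17, adjusted p = 1.65e-06 in GSDMD-KO) and Hey2 (-1.23 ± 0.16, adjusted p = 2.54e-05 and -1.23 ± 0.16, adjusted p = 3.14e-05) fell, and the smooth muscle target Heyl was at -0.41 ± 0.10 (adjusted p = 0.00399) and -0.44 ± 0.10 (adjusted p = 0.00273). The 1 higher gene was the DNA-binding partner Rbpj, by 0.19 ± 0.07 (adjusted p = 0.0498) and 0.50 ± 0.07 (adjusted p = 1.01e-04). Of all retina genes 3.11% were higher and 2.05% lower in WT, and 4.38% and 3.44% in GSDMD-KO. In the retina 3 of the 13 were higher and 0 lower in WT, led by the endothelial ligand Dll4 (1.50 ± 0.30, adjusted p = 0.027) and by Nrarp (0.66 ± 0.13, adjusted p = 0.0242), and in GSDMD-KO 3 were higher and 1 lower: Dll4 at 1.00 ± 0.30 (adjusted p = 0.0891), Heyl at 1.64 ± 0.33 (adjusted p = 0.0215) and Jag2 at 0.63 ± 0.14 (adjusted p = 0.0308) were higher and Jag1 was lower at -0.49 ± 0.12 (adjusted p = 0.0432).

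Des encodes desmin, the intermediate filament of muscle and of many pericytes. In the lung Des was at 111, 129 and 177 CPM in WT-RA, 197, 196 and 201 in WT-O2, 129, 134 and 113 in KO-RA and 169, 199 and 119.8 in KO-O2. WT-O2 was above WT-RA, by 0.51 ± 0.18 (adjusted p = 0.04), and in GSDMD-KO the difference was 0.38 ± 0.18 (adjusted p = 0.122), where KO-O2 mouse 3, at 119.8 CPM, lay within the KO-RA range. Heart muscle genes (7 of 7 measured) summed to 171 to 380 CPM in the WT-RA group, 192 to 233 in WT-O2, 144 to 155 in KO-RA and 139 to 232 in KO-O2. Their part in the Des values was not tested. In the retina Des was at 1.40, 1.60 and 1.84 CPM in WT-RA, 3.73, 4.46 and 3.85 in WT-O2, 0.98, 2.42 and 1.27 in KO-RA and 3.47, 2.53 and 2.44 in KO-O2. It rose 2.48-fold in WT, with a log2 fold change of 1.31 ± 0.32 (adjusted p = 0.0571), and was at 0.85 ± 0.32 (adjusted p = 0.162) in GSDMD-KO, where the groups did not overlap either. The WT call passed in 13 of 22 alternatives and was at 1.51 (adjusted p = 0.177) without the lens-holding libraries. Smooth muscle contractile genes stood beside Des in the lung. In WT 5 of 12 were higher and 1 lower, and 4 were higher and 2 lower in GSDMD-KO. Of all lung genes 24.5% were higher and 24.7% lower in WT, and 23.3% and 23.4% in GSDMD-KO. In each genotype 6 of the 12 did not pass, and the median log2 fold change was 0.24 in WT and 0.19 in GSDMD-KO. Among the higher genes in WT were Actg2 at 1.53 ± 0.32 (adjusted p = 0.00402) and Myocd at 1.12 ± 0.25 (adjusted p = 0.00237). Cnn1 at 1.23 ± 0.29 (adjusted p = 0.00652) and Acta2 at 1.16 ± 0.29 (adjusted p = 0.0088) were higher too. The 12 genes summed to 1304 to 1794 CPM in WT-RA, 1894 to 2095 in WT-O2, 1418 to 1475 in KO-RA and 1266 to 2007 in KO-O2. In the retina 1 of 11 tested was higher in each genotype, Actg2, at a mean of 3.34 CPM in WT-O2 against 0.411 in WT-RA and 1.74 in KO-O2 against 0.0754 in KO-RA. The 1 lower gene was Mylk (-0.42 ± 0.10, adjusted p = 0.0469) in WT and Lmod1 (-0.82 ± 0.25, adjusted p = 0.0939) in GSDMD-KO. Of all retina genes 3.11% were higher and 2.05% lower in WT, and 4.38% and 3.44% in GSDMD-KO.

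Vtn encodes vitronectin, an adhesive glycoprotein of plasma and matrix that pericytes also make. In the lung Vtn was at 16.4, 14.7 and 16.7 CPM in WT-RA, 1.74, 2.58 and 1.69 in WT-O2, 13.8, 12.0 and 12.0 in KO-RA and 5.07, 1.84 and 1.84 in KO-O2. All hyperoxia mice were far under all room air mice, and the fall in WT was the largest change of the 10 genes in either tissue, with a log2 fold change of -2.99 ± 0.32 (adjusted p = 1.53e-05) and a WT-O2 level at 0.126 of WT-RA. In GSDMD-KO it was -2.11 ± 0.31 (adjusted p = 1.98e-04). KO-O2 mouse 1 had the highest Vtn of the hyperoxia lungs, at 5.07 CPM. The same library held the liver markers (9 genes) at a summed 167 CPM, against 1.41 to 3.61 in the other 11 lungs. Its Alb level was 78.1 CPM and its Ahsg level 47.4. The part of liver RNA in its Vtn value was not tested. Without that mouse the GSDMD-KO value was -2.78 (adjusted p = 4.95e-07). In the retina Vtn was at 940.1, 773 and 729.5 CPM in WT-RA, 884, 690.5 and 843 in WT-O2, 680.2, 716 and 743 in KO-RA and 655, 589 and 568 in KO-O2. Its log2 fold change was -0.01 ± 0.13 (adjusted p = 0.973) in WT and -0.24 ± 0.13 (adjusted p = 0.324) in GSDMD-KO, neither past the threshold, although all KO-O2 mice were under all KO-RA mice, with 95% intervals of -0.29 to 0.26 and -0.52 to 0.04. When the lens-holding libraries were left out it was -0.23 (adjusted p = 0.494) and -0.20 (adjusted p = 0.448).

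**Figure D3:**
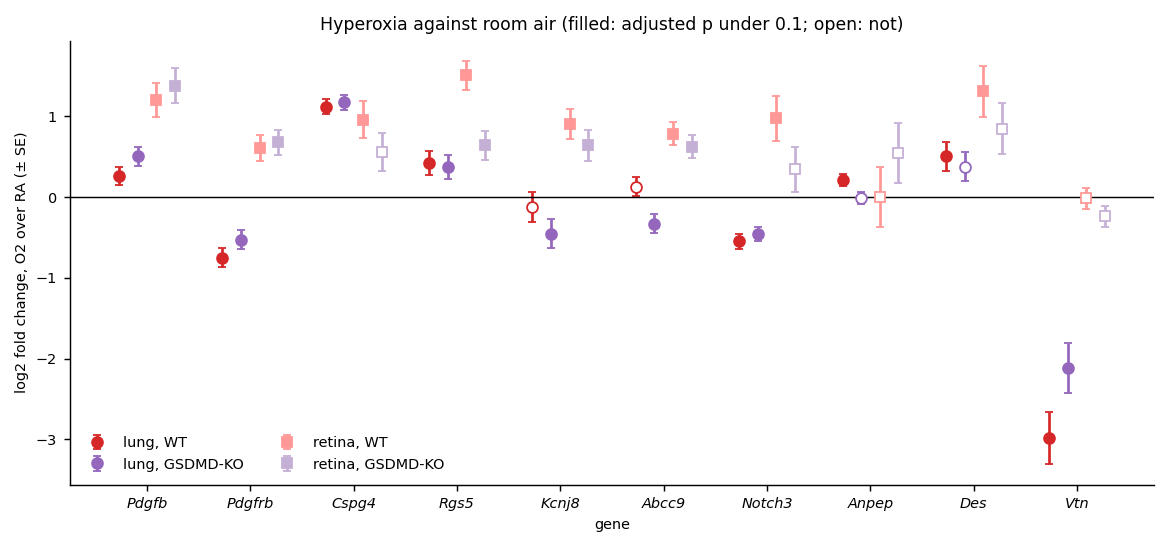
Log2 fold change of hyperoxia over room air (y axis, ± SE) for each of the 10 genes (x axis) in lung (circles) and retina (squares), in WT and GSDMD-KO. Filled symbols have an adjusted p under 0.1. Lung values run from -2.99 (Vtn) to 1.17 (Cspg4), and retina values from -0.24 (Vtn) to 1.51 (Rgs5).

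The knockout was then compared with WT at each exposure, which asks whether these genes depended on gasdermin D. These comparisons reuse the groups described above. How many of all genes had groups apart in them was not counted, so groups apart are given as a description only. In edgeR 0 of the 10 genes passed in any of them. In the lung, 0 passed between KO-O2 and WT-O2 (1 at an unadjusted p under 0.05, 0 in DESeq2), where 0.0416% of all genes passed, and 0 between KO-RA and WT-RA (1 unadjusted, 1 in DESeq2), where 0.488% did. The largest of these differences by p was Abcc9 in room air, at 14.2 to 16.9 CPM in WT-RA and 19.2 to 23.1 in KO-RA, with no overlap and a log2 fold change of 0.48 ± 0.12 (adjusted p = 0.136). Vtn was also apart there, lower in KO-RA, at -0.33 ± 0.28 (adjusted p = 0.761). Abcc9 was also the gene that passed there in DESeq2 (adjusted p = 0.0299), and with a term for sex its value was 0.48 (adjusted p = 0.464). After hyperoxia Anpep was lower in all 3 KO-O2 mice than in all 3 WT-O2 mice, with a log2 fold change of -0.24 ± 0.08 (adjusted p = 0.559). The intervals were narrow for several genes in hyperoxia: the 95% interval of KO-O2 over WT-O2 was -0.11 to 0.28 for Cspg4, -0.16 to 0.23 for Notch3 and -0.15 to 0.36 for Pdgfrb on the log2 scale. They were wider for others, at -0.20 to 1.28 for Vtn, -0.68 to 0.11 for Des and -0.44 to 0.36 for Kcnj8.

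In the retina 0 of the 10 genes passed between KO-O2 and WT-O2 in edgeR (3 at an unadjusted p under 0.05, 2 in DESeq2), where 1.27% of all genes passed. Cspg4 was lower in every KO-O2 than in every WT-O2 mouse, with a log2 fold change of -0.70 ± 0.23 (adjusted p = 0.231), and so was Vtn, at -0.42 ± 0.13 (adjusted p = 0.194). Des was also lower in every KO-O2 mouse, at -0.51 ± 0.31 (adjusted p = 0.55), and was at -0.42 (adjusted p = 0.817) without the 2 libraries with Gsdmd against the label. Rgs5, at 146 to 193 CPM in WT-O2 and 90.8 to 154 in KO-O2, overlapped, with -0.51 ± 0.18 (adjusted p = 0.247). By qRT-PCR the study reported less Pdgfrb in KO-O2 than in WT-O2 retinas. In these libraries Pdgfrb was at -0.05 ± 0.15 (adjusted p = 0.95), with a 95% interval of -0.39 to 0.29. Without the 2 libraries with Gsdmd against the label Pdgfrb was at 0.01. Rgs5 and Vtn were the genes that passed in DESeq2 (adjusted p = 0.077 and 0.0113). Without the 2 libraries whose Gsdmd level goes against the label, Cspg4 was at -0.51 (adjusted p = 0.522), Rgs5 at -0.35 (adjusted p = 0.548) and Vtn at -0.37 (adjusted p = 0.507). Leaving out the lens-holding libraries put them at -0.70 (adjusted p = 0.285), -0.51 (adjusted p = 0.333) and -0.42 (adjusted p = 0.215). Erythroid genes, the hemoglobins and other red cell genes, were lower in KO-O2 than in WT-O2 for 4 of 5 tested. They summed to 369.8 to 429 CPM against 983 to 1552, and their part in the values of the 10 genes was not tested. In room air 0 of 10 passed (1 unadjusted, 0 in DESeq2), where 0.00522% of all genes passed, and the gene with the lowest p was Pdgfb, at -0.58 ± 0.21 (adjusted p = 0.319). Pdgfrb was lower and Rgs5 higher in every KO-RA than in every WT-RA mouse, at -0.12 ± 0.16 (adjusted p = 0.803) and 0.35 ± 0.18 (adjusted p = 0.434). For Pdgfrb the nearest mice were at 7.64 CPM in KO-RA and 7.80 in WT-RA. Without the 2 libraries whose Gsdmd level goes against the label, Pdgfb was at -0.73 (adjusted p = 0.488), Pdgfrb at -0.07 (adjusted p = 0.931) and Rgs5 at 0.25 (adjusted p = 0.604). Pdgfb was at -0.53 (adjusted p = 0.498) and Rgs5 at 0.31 (adjusted p = 0.699) without the lens-holding libraries.

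Whether the effect of hyperoxia itself differed between genotypes was tested as an interaction, the log2 fold change in GSDMD-KO minus that in WT. It passed for 0 of 10 genes in the lung (1 at an unadjusted p under 0.05, 0 in DESeq2) and for 0 of 10 in the retina (1 unadjusted, 1 in DESeq2), against 0.00595% and 0.00522% of all genes. The largest lung value was that of Vtn, 0.87 ± 0.44 (adjusted p = 0.786), with a 95% interval of -0.09 to 1.84. Over the alternative settings Vtn ran from 0.21 to 1.12. In the lung the lowest p was that of Abcc9, -0.46 ± 0.17 (adjusted p = 0.619). In the retina it was that of Rgs5, -0.87 ± 0.25 (adjusted p = 0.262), with a 95% interval of -1.41 to -0.32 and an adjusted p of 0.0404 in DESeq2. Without the 2 retina libraries with Gsdmd against the label it was -0.60 (adjusted p = 0.6), and without the 3 lens-holding libraries -0.82 (adjusted p = 0.402). Genes that passed in 1 genotype and not in the other, such as Notch3, Cspg4 and Des in the retina and Kcnj8, Abcc9, Anpep and Des in the lung, were therefore not shown to differ between genotypes.

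**Figure D4:**
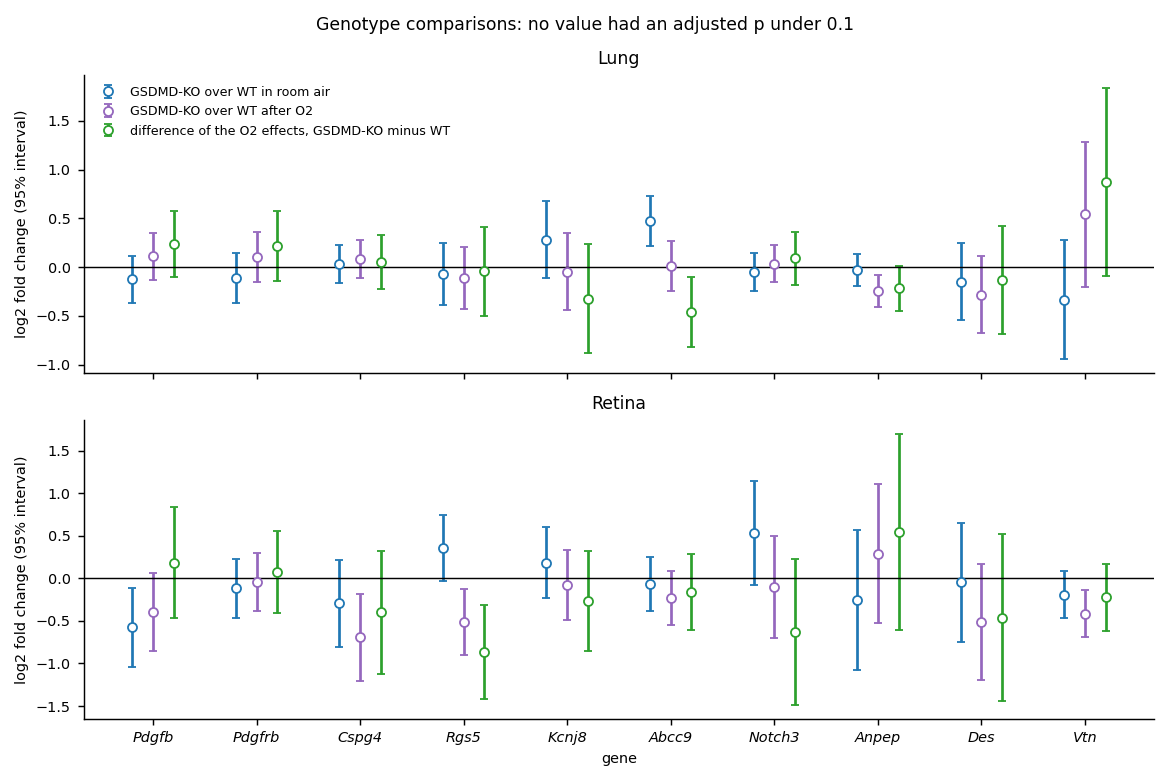
Log2 fold change with its 95% interval (y axis) for each of the 10 genes (x axis) in lung (top) and retina (bottom), for GSDMD-KO over WT in room air, GSDMD-KO over WT after O2, and the difference between the O2 effects of the genotypes. No value had an adjusted p under 0.1 in edgeR. The value farthest below 0 is the Rgs5 difference in the retina, at -0.87, and the value farthest above 0 the Vtn difference in the lung, at 0.87.

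Further pericyte genes and endothelial genes were set beside the 10 genes with the same test. Of all lung genes tested 24.7% were lower and 24.5% higher in WT, and 23.4% and 23.3% in GSDMD-KO. In the lung 11 of 16 further pericyte genes were lower and 2 higher in WT, and 9 were lower and 4 higher in GSDMD-KO. Those with the lowest p in WT were the guanylate cyclase subunits Gucy1b1 (-1.29 ± 0.09, adjusted p = 9.25e-08) and Gucy1a1 (-1.16 ± 0.09, adjusted p = 1.98e-07), the cytochrome oxidase subunit Cox4i2 (-2.10 ± 0.17, adjusted p = 7.11e-07) and Higd1b (-1.14 ± 0.11, adjusted p = 1.91e-06), and their values in GSDMD-KO were -1.07 ± 0.09, -0.86 ± 0.09, -2.02 ± 0.17 and -1.11 ± 0.11. Endothelial genes were lower for 7 of 12 and higher for 1 in the WT lung, led by the angiopoietin receptor Tek (-2.47 ± 0.12, adjusted p = 3.69e-09), and lower for 6 and higher for 1 in GSDMD-KO. Their summed level was 5289 to 6068 CPM in the WT-RA group, 3873 to 4291 in WT-O2, 5013 to 5149 in KO-RA and 3587 to 4451 in KO-O2. The lists had medians of -0.57 and -0.42 in WT, beside 0.17 for the 10 genes, and of -0.38 and -0.24 in GSDMD-KO, beside -0.17.

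In the retina 5 of 16 further pericyte genes were higher and 0 lower in WT, and 5 were higher and 1 lower in GSDMD-KO. Of all genes 3.11% were higher and 2.05% lower in WT, and 4.38% and 3.44% in GSDMD-KO. Retina values of all lists beside the 10 genes are from the main fit alone, without the fits for lens, sex or Gsdmd label. Mcam (2.37 ± 0.23, adjusted p = 0.00104 in WT and 2.20 ± 0.23, adjusted p = 0.00216 in GSDMD-KO), Ndufa4l2 (3.36 ± 0.47, adjusted p = 0.00651 and 4.13 ± 0.49, adjusted p = 0.00381) and Higd1b (1.10 ± 0.21, adjusted p = 0.0242 and 1.23 ± 0.22, adjusted p = 0.0144) rose in both. The 1 lower gene in GSDMD-KO was Gucy1b1 (-0.43 ± 0.11, adjusted p = 0.0561). Endothelial genes were higher for 8 of 12 in WT and 7 of 12 in GSDMD-KO and lower for 0 in both, with Pecam1 at 1.24 ± 0.15 (adjusted p = 0.00184) and 0.80 ± 0.14 (adjusted p = 0.0153), Cdh5 at 1.52 ± 0.19 (adjusted p = 0.00294) and 0.95 ± 0.19 (adjusted p = 0.0225) and Tie1 at 1.07 ± 0.15 (adjusted p = 0.00475) and 0.91 ± 0.15 (adjusted p = 0.0106). Their summed level was 166 to 200.4 CPM in the WT-RA group, 304 to 346 in WT-O2, 189.9 to 208 in KO-RA and 268 to 295 in KO-O2. The medians were 0.93 for the endothelial genes and 0.36 for the further pericyte genes in WT, beside 0.93 for the 10 genes. In GSDMD-KO they were 0.72 and 0.08, beside 0.63. The part of the endothelial level in the mural values was not tested.

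**Figure D5:**
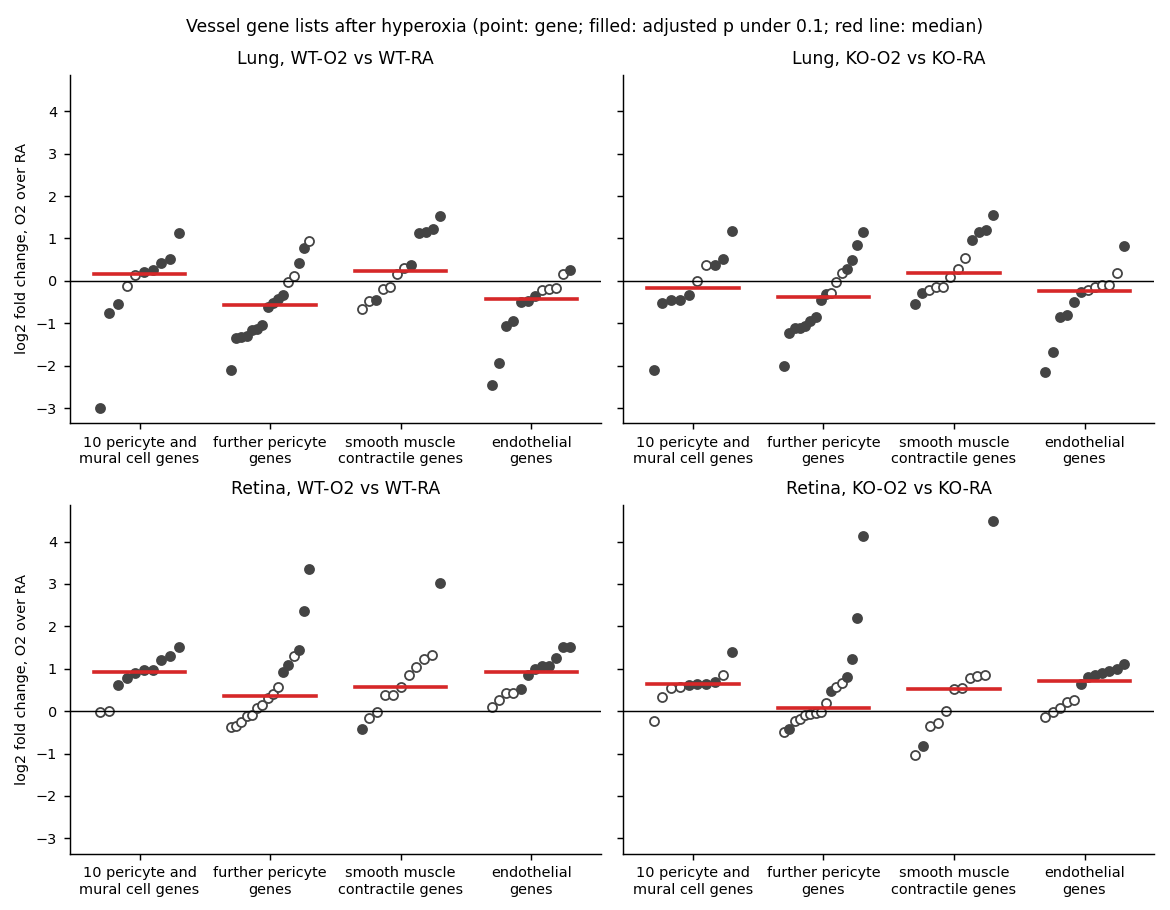
Log2 fold change of hyperoxia over room air (y axis) of each tested gene, by list (x axis), in lung (top) and retina (bottom) and in WT (left) and GSDMD-KO (right). Filled points have an adjusted p under 0.1 and red lines are list medians. In the WT lung the medians are 0.17 for the 10 genes and -0.57 for further pericyte genes, and in the WT retina 0.93 and 0.36.

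The genes whose pattern over the 12 libraries of a tissue came closest to each of the 10 were found by the root-mean-square (RMS) distance of their centered log2 levels, among those averaging 1 CPM or more (14678 for the lung, 15660 for the retina). This is a description, since many genes follow exposure. In the retina several neighbors are known vessel genes. Rgs5 came closest to Itga1 (0.140), Pecam1 (0.143) and Fli1 (0.147), where Pecam1 is the endothelial adhesion molecule CD31, Fli1 an endothelial transcription factor and Itga1 a collagen receptor subunit. Des came closest to Dll4 (0.174), Robo4 (0.189) and Vegfa (0.192), where Dll4 and Robo4 are endothelial and Vegfa is the main angiogenic growth factor. Pdgfb came closest to Foxs1 (0.149), Fxyd5 (0.190) and Bcl6b (0.208), where Bcl6b is endothelial and Foxs1 is found in pericytes. Abcc9 came closest to Uaca (0.119), Ushbp1 (0.128) and Tmsb4x (0.131) and Kcnj8 to Ushbp1 (0.140), Uaca (0.142) and Spon2 (0.149), so Ushbp1 and Uaca were among the 3 nearest of both. Pdgfrb came closest to Zc3hav1 (0.104), Plod1 (0.115) and Mafk (0.117), Cspg4 to Tcf19 (0.152), Srgn (0.166) and Ppp1r14a (0.181) and Notch3 to Ptbp3 (0.207), Gsto2 (0.208) and 2700099C18Rik (0.222). Anpep came closest to Epop (0.179), 3110009E18Rik (0.192) and Tmem44 (0.198) and Vtn to Calr (0.074), Creld2 (0.077) and Dynll1 (0.079), in which Calr and Creld2 are genes of the endoplasmic reticulum.

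Within the set, Abcc9 was the 11th nearest gene to Kcnj8 in the retina and Kcnj8 the 23rd nearest to Abcc9 (RMS 0.165), and rank 11 was the lowest that any of the 10 genes had for another. Des had Abcc9 at rank 16, Pdgfrb had Abcc9 at rank 43, Cspg4 had Abcc9 at rank 60, Rgs5 had Kcnj8 at rank 61, Notch3 had Kcnj8 at rank 72 and Pdgfb had Des at rank 78. Anpep and Vtn stood away, with their nearest member at ranks 7701 and 11387. In the lung the set was spread out. Pdgfrb had Notch3 at rank 218 and Des had Pdgfb at rank 325, whereas Kcnj8 had Abcc9 at rank 2402, Abcc9 had Kcnj8 at rank 4462, and the other 6 had their nearest member at ranks 1025 to 7258. The nearest lung genes were Sipa1l2 (0.093), Chd5 (0.098) and Gm11427 (0.103) for Pdgfrb, Lamb3 (0.076), Ccnd2 (0.086) and Arsb (0.105) for Cspg4 and Fut8 (0.065), Nfkb1 (0.072) and Ankrd13a (0.074) for Notch3. They were Mtap (0.087), Gorasp2 (0.091) and Parl (0.092) for Pdgfb, Poc1a (0.094), Lrp2bp (0.119) and Yars2 (0.122) for Rgs5, Gpx7 (0.124), Prokr1 (0.124) and Gpr153 (0.128) for Kcnj8, Zfp9 (0.130), Klk13 (0.131) and Pdlim5 (0.131) for Abcc9, Nudt9 (0.065), Vti1b (0.069) and Arf6 (0.070) for Anpep and Bop1 (0.128), Loxl3 (0.133) and Pdlim1 (0.134) for Des.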

How the data were processed

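The authors sequenced total RNA of each lung and retina, quantified transcripts by kallisto, collapsed them to genes by tximport, and deposited estimated counts, unscaled for depth, as 1 table for each tissue. Values within 0.01 of a whole number made up 55.8% of nonzero lung entries and 2.20% of nonzero retina entries, so the retina values may have been scaled, and tests were kept within a tissue. The labels name mm10 and the methods supplement another build, so identifiers alone were used to find genes. Symbols, positions and exon lengths came from a GRCm38 annotation, which paired 35816 of 36109 lung and 35968 of 36595 retina genes.

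Counts were rounded, filtered by filterByExpr (16819 lung and 19173 retina genes left), scaled by TMM and fitted with edgeR 4.0.16 (glmQLFit, robust, and glmQLFTest) in R 4.3.3, with 1 term per group and all 12 libraries of a tissue in the fit. CPM are after TMM scaling. P-values were adjusted by Benjamini-Hochberg over all genes tested, with calls made under 0.1. The fit was tested on simulated data. The study itself tested groups with DESeq2, and DESeq2 1.42.0 was run as an alternative. Each replicate is 1 mouse, numbered in accession order. The 10 genes and the gene lists were chosen with earlier results of these data known. From each list at most 4 genes of smallest p were named, and a gene that made up a count of 1 was named after its value was seen. The genes nearest to Vtn in the lung are not reported here. Alternatives were size factors of DESeq2 (RLE), other count filters, DESeq2, a term for sex from Y-linked genes, fits of the compared groups alone, other call rules and leaving out each mouse. After seeing the data, fits without the lens-holding libraries, with a lens covariate, without the 2 retina libraries whose Gsdmd level goes against the label and with library totals were added.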

Additional observations from a re-analysis of the deposited data

Results flagged for a closer look

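Pdgfrb and Notch3, the receptors of mural cells for PDGF-BB and for Notch ligands, and Abcc9, the channel subunit SUR2, had groups that moved opposite ways in the lung and the retina with no overlap between exposures in either tissue. In WT mice the log2 fold change of Pdgfrb with hyperoxia was -0.75 for lung and 0.61 for retina, and that of Notch3 was -0.55 and 0.98. In GSDMD-KO mice Pdgfrb was at -0.53 and 0.68, and Abcc9 at -0.33 and 0.62. All 8 values passed at an adjusted p under 0.1 in edgeR's quasi-likelihood test within their tissue. The genes were flagged because their groups were apart in opposite directions, so a test on the same values is not separate evidence. In the lung 24.7% of all genes were lower in WT and 23.4% in GSDMD-KO at that threshold. How many of all genes moved opposite ways in the lung and the retina was not counted. The pattern is therefore not shown to be particular to these genes. The 4 retina values lost the threshold without the 3 lens-holding libraries, at 0.66 (adjusted p = 0.216) and 0.66 (adjusted p = 0.145) for Pdgfrb, 1.00 (adjusted p = 0.214) for Notch3 and 0.63 (adjusted p = 0.129) for Abcc9. With a term for sex Pdgfrb in WT (0.74, adjusted p = 0.115), Notch3 (1.01, adjusted p = 0.25) and Abcc9 (0.56, adjusted p = 0.142) also lost it, and Notch3 passed in 7 of 22 alternatives. The difference between the tissues was not tested, because oxygen level, ages at exposure, time to collection and count table all differed with the tissue and cannot be told apart from it.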

How the results depend on the processing

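No paired analysis was possible because the labels give no replicate number that groups share. The count of the 10 genes that passed is given for each comparison with its value as reported first. At a fold change of at least 2 it went from 8 to 2 in the lung of WT and from 8 to 2 in the lung of GSDMD-KO for hyperoxia against room air, from 8 to 3 in the WT retina and from 5 to 1 in the GSDMD-KO retina. At an adjusted p under 0.05 it was 4 in the WT retina and 3 in the GSDMD-KO retina, where 500 and 757 of all genes passed in place of 990 and 1500. With a term for sex it was 4 and 2, without the 3 lens-holding libraries 2 and 1, and with a lens covariate 1 and 3. Fitting the compared groups alone gave 2 in the GSDMD-KO retina, where 835 of all genes passed. Leaving out the 2 retina libraries whose Gsdmd level goes against the label gave 3 in WT, where 307 of all genes passed. DESeq2 gave 1 in place of 0 for KO-RA against WT-RA in the lung, 2 in place of 0 for KO-O2 against WT-O2 in the retina and 1 in place of 0 for the retina interaction. Among all genes DESeq2 called 418 in place of 82 in that lung comparison and 1001 in place of 244 between KO-O2 and WT-O2 in the retina. The cause of these shifts was not tested, apart from the fewer libraries or stricter rule that some alternatives impose.

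Leaving out 1 mouse at a time gave 5 to 8 in the WT lung, with 5 without WT-RA mouse 1, WT-RA mouse 2 or WT-O2 mouse 1, and 5 to 9 in the GSDMD-KO lung, with 5 without KO-RA mouse 2. It gave 3 to 8 in the WT retina, with 3 without WT-O2 mouse 1, and 1 to 5 in the GSDMD-KO retina, with 1 without KO-RA mouse 1, KO-RA mouse 3 or KO-O2 mouse 2. For KO-RA against WT-RA in the lung it gave 0 to 1, with 1 without WT-RA mouse 3. For KO-O2 against WT-O2 and for the interaction in the retina it gave 0 to 1, with 1 without KO-O2 mouse 1, and for the other 3 comparisons it gave 0. Of 2030 values of single genes under the alternatives, 1905 stayed on the same side of the threshold, 113 lost it, 12 passed it newly and 0 reversed as a called value. Among values that were not called, 62 changed sign (26 lung, 36 retina). With library totals in place of TMM, the median of all genes moved by 0.17 for KO-RA against WT-RA in the retina, where 485 genes passed in place of 1, and by -0.19 for the retina interaction. Low counts limit the retina values of Anpep, whose lowest count was 20.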

Other observations

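Genes of macrophages and microglia, which lie along vessels in both tissues, were higher after hyperoxia. In the lung 8 of 10 were higher in WT and 10 of 10 in GSDMD-KO, with the complement genes C1qb (1.11 ± 0.12, adjusted p = 4.52e-06 in WT) and C1qc (1.03 ± 0.12, adjusted p = 8.85e-06) and the lysosomal gene Cd68 (1.03 ± 0.14, adjusted p = 5.61e-05 in WT and 1.33 ± 0.14, adjusted p = 7.21e-06 in GSDMD-KO). In the retina 7 of 10 were higher in WT and 6 of 10 in GSDMD-KO, with Mpeg1 (1.35 ± 0.20, adjusted p = 0.00702 and 1.58 ± 0.20, adjusted p = 0.00396) and C1qa (1.10 ± 0.21, adjusted p = 0.0242 and 1.57 ± 0.22, adjusted p = 0.00492), and 0 were lower in either tissue. These are log2 fold changes ± SE from edgeR's quasi-likelihood test over all genes, in the main fit alone. Of all genes 24.5% were higher in the WT lung, 23.3% in the GSDMD-KO lung, 3.11% in the WT retina and 4.38% in the GSDMD-KO retina. Fibroblast genes, some of which come from cells that also carry Pdgfrb, split in the lung, where 4 of 8 were higher and 2 lower in each genotype. The matrix proteoglycans Dcn (1.50 ± 0.19, adjusted p = 8.23e-05 in WT and 1.23 ± 0.19, adjusted p = 3.81e-04 in GSDMD-KO) and Lum (1.15 ± 0.23, adjusted p = 0.00172 and 1.19 ± 0.24, adjusted p = 0.00165) were higher, and the transcription factor Tcf21 (-0.76 ± 0.13, adjusted p = 3.58e-04 and -0.93 ± 0.13, adjusted p = 7.60e-05) was lower.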
